A study of Rattus norvegicus with 45 samples.

Results

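The subject is hippocampal area CA1 of rats that were 28 months old and kept on restricted food, set against CA1 of rats that were 18 months old and ate freely. All were male F344xBN rats, a hybrid strain used in ageing research, and each array held the CA1 RNA of 1 animal. The restricted rats (CRO) were taken to a first cut of 10% at an age of 14 weeks, then 25%, and were held at 40% from 17 weeks onward. They had been graded as good performers (CRO_GP, 3 arrays) or poor performers (CRO_PP, 3 arrays), and the sources used here do not say in which test. The younger rats (ALMA, 3 arrays) were fed ad libitum and carry no grade. CRO_PP replicate 3 was left out because its RNA was degraded. That leaves 8 of the 45 arrays of the series, 5 restricted and 3 ad libitum. Age and diet both differ between the 2 groups, so their shares in a difference cannot be told apart here. The 6 ad libitum CA1 arrays of 28 months (ALO, 3 good and 3 poor performers) stand beside them as a reference for age without restriction.

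CA1 pyramidal neurons send out the main hippocampal output, and their excitatory synapses on dendritic spines are a standard model of synaptic plasticity. In ageing rodents the hippocampus is known for rising levels of microglial, complement and antigen-presenting genes. Lasting food restriction is known in rodents for lower insulin and growth factor signalling, a lower body temperature and a shift of fuel use toward fat and ketones. The comparison asks which genes of the restricted old rats lie near the 18-month level and which lie far from it.

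Signals are those of the authors' deposited value table, which holds both classes on 1 linear scale. Differences are restricted minus 18-month means of log2(signal + 16), given with their standard error (SE), over 5 against 3 arrays. The added 16 makes a difference understate the change of a dim gene. A gene stands for its brightest probe set. It is called higher or lower where limma gave an adjusted p under 0.05 over all probe sets. It counts as near where the 95% interval of the difference lay wholly within 0.5 of 0 on the log2 scale, and as far where it was called with a difference of at least 1. A gene with a small, steady difference can be both called and near.

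CRO_PP replicate 3 had a 3'/5' signal ratio of 20.5 for actin and 7.64 for Gapdh, against at most 13.8 and 2.69 on the other 8 arrays. Of the added control transcripts, DapX, LysX, PheX and ThrX also differed by class. Those of BioB and CreX did not: the BioB 5' probe set read 63.2 to 72.4 on ALMA and 53.3 to 76.1 on the restricted arrays used. CreX 5' read 2627 to 2858 and 2206 to 2939. The DapX 3' probe set read 583 to 700.03 on the ALMA arrays, 186 to 266 on CRO_GP, 162 to 283 on ALO and 3.87 to 4.20 on CRO_PP. Between ALMA and the restricted arrays, class and the level of DapX, LysX, PheX and ThrX cannot be told apart. Whether these levels move with the genes below was not tested. Median signals were 31.4 to 32.7 on the ALMA arrays and 33.1 to 38.3 on the restricted arrays, and present calls covered 60.9% to 62.0% and 61.7% to 67.4% of probe sets. The number of arrays limits the precision of every value, and p-values measure the spread between these animals. Of 10 CA1 markers, 8 had their highest median in CA1, and 5 read higher on every CA1 array than on any CA3 or dentate array. Mpped1 and Htr1a, both dim, had higher medians in another region. Wfs1, a CA1 marker, read 1877 to 2786 in CA1, against 457 to 1408 in CA3 and 403 to 1595 in the dentate gyrus. Pou3f1, another, read 948 to 1635, against 233 to 580.3 and 149.8 to 459.

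Of 9780 genes tested in the restricted old rats, 6486 (66.3%) lay near the 18-month level by the interval. That count moved with the scale and the arrays: it was 5128 of 9768 with 1 added to the signals and 8284 of 9770 with 64 added. It was 4706 of 9740 with CRO_PP replicate 3 added, 6553 of 9720 for CRO_GP alone and 4578 of 9736 for CRO_PP alone. The test called 883 genes higher (9.03%) and 291 lower (2.98%). Far genes numbered 84 (0.859%), of which 83 were higher (0.849%) and 1 was lower (0.0102%). The lone far gene on the lower side was Tmc4, with a difference of -1.34, and it was called present on 0 of the 3 ALMA and 1 of the 5 restricted arrays. It was chosen after its values were seen, and missed the threshold with CRO_PP replicate 3 added. In 2513 genes (25.7%) the 5 restricted arrays lay wholly above or wholly below the 3 ALMA arrays. Over the 18625 probe sets, 1410 were called higher (7.57%) and 487 lower (2.61%). That split of 74.3% higher fell to 61.9% after quantile normalization and to 49.7% after each array was centred on its median. The small ALMA group weighed on the counts. Without ALMA replicate 2 there were 404 genes higher and 28 lower, and without ALMA replicate 3 there were 388 and 41. Leaving out each of the 8 arrays in turn gave 5447 to 6504 near genes.

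The largest differences reached nearly 2 on the log2 scale. Ppp1r9b, or spinophilin, which holds protein phosphatase 1 in dendritic spines, read 189.7, 142 and 149 on the ALMA arrays, 512, 492 and 397 on CRO_GP and 809.9 and 833 on CRO_PP, a difference of 1.78 ± 0.23, or 3.43 as a ratio of geometric means of signal + 16 (limma adjusted p = 0.00166). Every restricted array read above every ALMA array, and the ALO arrays, at 386 to 547 (median 486), did so as well. Mapre3, a binder of growing microtubule ends in neurons, read 71.1, 59.2 and 58.6, then 226, 236 and 189.8 and 303 and 312, a difference of 1.75 ± 0.15 (limma adjusted p = 0.000401). The groups did not overlap for either gene, but that was a condition for being named here and is no added support. CRO_PP read higher than CRO_GP in both.

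Aplp1, a relative of the amyloid precursor protein, read 360.4, 290.5 and 279 on the ALMA arrays and 717 to 1328 on the restricted arrays, a difference of 1.66 ± 0.20 (limma adjusted p = 0.00121). Dlg4, which encodes the postsynaptic scaffold PSD-95, was dim, with 12.4, 29.2 and 21.7 on ALMA against 75.7, 66.3 and 44.4 on CRO_GP and 114 and 142 on CRO_PP. Its difference was 1.44 ± 0.28 (limma adjusted p = 0.0109), and it was called present on 1 of the 3 ALMA arrays. Others among the 12 largest were Prrc2a, an RNA-binding protein (1.93), Epn1, an endocytic adaptor (1.91), Prr12 (1.71) and Tubb4a, a beta-tubulin (1.58). Pfdn6, a prefoldin chaperone subunit (1.51), Slc25a23, a mitochondrial ATP carrier (1.51), and Scaf1, a splicing-related factor (1.45), were too. Prrc2a, Epn1 and Scaf1 were called present on 0 of the 3 ALMA arrays, so their 18-month level is close to background. Of these 11 genes, 10 stayed past the threshold under each of 20 alternative settings, and Dlg4 missed it once CRO_PP replicate 3 was added (limma adjusted p = 0.051).

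**Figure D1:**
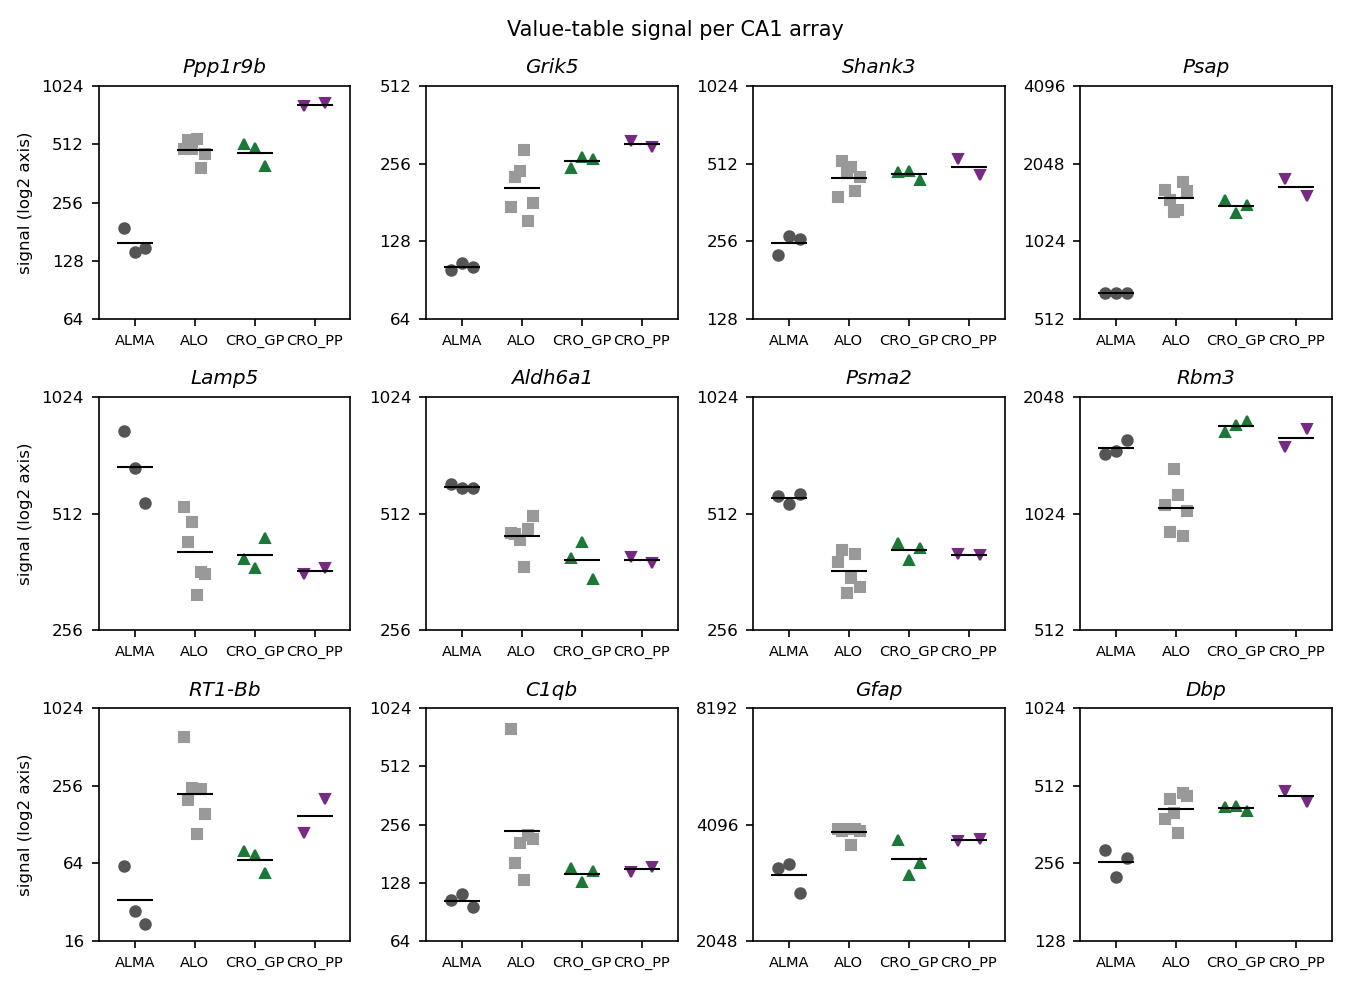
Value-table signal of 12 genes on each CA1 array (vertical log2 axis) for ALMA (3 arrays), ALO (6), CRO_GP (3) and CRO_PP (2). Points are arrays and lines are group means on the log2 scale. Ppp1r9b, Grik5, Shank3 and Psap sit above ALMA on every restricted array, Lamp5, Aldh6a1 and Psma2 below, while Rbm3 of the restricted rats sits at the ALMA level with ALO beneath.

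The ad libitum rats of 28 months stood above the 18-month level for these genes too. In the fit of 14 arrays, which shares the ALMA and the restricted arrays with the comparison above, ALO minus ALMA was 1.65 for Prrc2a, 1.51 for Ppp1r9b and 1.92 for Pfdn6. CRO minus ALO was 0.27 for Ppp1r9b and -0.41 for Pfdn6, with adjusted p-values of 0.339 and 0.0511 in limma. Over the 9745 genes of that fit, limma called 1926 between ALO and ALMA (19.8%) and 266 between CRO and ALO (2.73%). In the same fit, CRO minus ALMA had 1151 genes higher and 572 lower. The counts given earlier for CRO minus ALMA came from the fit of 8 arrays. Group sizes were 6 against 3, 5 against 6 and 5 against 3 arrays, so these counts do not measure distance alone.

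Apart from Tmc4, called decreases were smaller than 1 on the log2 scale. The largest that the naming rule took up was Rps25, a protein of the small ribosomal subunit, at 1137, 541 and 1001 on ALMA against 404 to 525 on the restricted arrays. Its difference was -0.88 ± 0.20 (limma adjusted p = 0.0227), and it lost its call without ALMA replicate 3 (0.105), ALMA replicate 1 (0.0599) or CRO_GP replicate 2 (0.051). Lamp5, a membrane protein of GABAergic nerve endings, read 838, 670.0 and 546 on ALMA, 389.5, 369 and 442 on CRO_GP and 358 and 371 on CRO_PP, a difference of -0.78 ± 0.13 (limma adjusted p = 0.00545). Aldh6a1, a mitochondrial enzyme of valine breakdown, read 609.7, 595 and 596, then 393, 431 and 347 and 395 and 381, a difference of -0.61 ± 0.09 (limma adjusted p = 0.00265). The ALMA arrays lay above all 5 restricted arrays for each of these genes, as the naming rule required.

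Uba6, an enzyme that activates ubiquitin (-0.73), Slc25a30, a mitochondrial carrier (-0.65), Extl2, a glycosyltransferase of heparan sulfate synthesis (-0.61), and Mpzl1, a cell surface protein (-0.61), were also called lower. With Lamp5 and Aldh6a1, these 4 were lower under every one of the 20 settings. Mpzl1 read 158 to 164 on ALMA, 87.3 to 121 on the restricted arrays and 104 to 184 (median 148) on ALO, so the ALO range reached the ALMA level. Akr1e2, an aldo-keto reductase (-0.73), missed the threshold without ALMA replicate 2 (limma adjusted p = 0.0524). Ufl1, the ligase that attaches the ubiquitin-like UFM1, and Cdk5rap3, its partner in that complex, had differences of -0.69 and -0.62. Both lost their calls without ALMA replicate 2 (limma adjusted p = 0.11 and 0.0897) and without ALMA replicate 1 (0.0849 and 0.0555), and Ufl1 also without ALMA replicate 3 (0.0937), CRO_PP replicate 1 (0.0676) or CRO_PP replicate 2 (0.0537). Pop4, a ribonuclease P subunit (-0.61), lost its call without ALMA replicates 2 or 3 (0.101 and 0.0994). Sanbr (-0.70) lost it without ALMA replicate 1 (0.0674), ALMA replicate 2 (0.104) or CRO_GP replicate 2 (0.052).

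Some genes of restricted rats lay at the 18-month level although ad libitum rats of 28 months did not. There were 76 genes near in the comparison that also passed limma for ALO minus ALMA and for CRO minus ALO. Of these, 39 had ALO on the higher side and 37 on the lower. They were a small part of the genes tested, as 6486 of 9780 were near. Of the 9745 genes in the fit with the ALO arrays, limma called 1926 for ALO minus ALMA and 266 for CRO minus ALO. The comparisons share arrays, so the count of 76 is a description. Thoc2, of the THO complex in mRNA export, read 212, 234 and 238 on ALMA and 172 to 256 on the restricted arrays, with ALO at 97.8 to 195 (median 121). The interval of its restricted minus ALMA difference ran from -0.40 to 0.15. Ppfia1, the presynaptic and focal adhesion scaffold liprin-alpha-1, read 276, 308 and 279 on ALMA, 228 to 296 on the restricted arrays and 171 to 205 (median 190.2) on ALO. No ALO array reached the lowest restricted or ALMA array for Ppfia1.

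Timp2, an inhibitor of matrix metalloproteinases, went the other way: ALMA read 607, 507 and 467, the restricted arrays 513 to 685, and ALO 719 to 1155 (median 822). Its interval ran from -0.08 to 0.43. Abhd12, a lipase of lysophosphatidylserine, had ALO minus ALMA at 0.57 and restricted minus ALMA at 0.18, and Tmie, of the hair cell transduction channel, had 0.62 and 0.23. Stk38, a kinase, had -0.62 and -0.14, Abcc5, an export pump, -0.60 and -0.12, and Gpcpd1, a glycerophosphocholine phosphodiesterase, -0.57 and -0.18. Cep152, a centriole protein, had -0.56 and -0.11, and Plac9 0.57 and -0.08, the latter at signals of 11.2 to 25.5 on the restricted arrays. None of these 10 genes passed the threshold against ALMA in any alternative that measured it. They were chosen for an interval near 0 on these arrays, so this was largely set beforehand and is no added support.

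**Figure D2:**
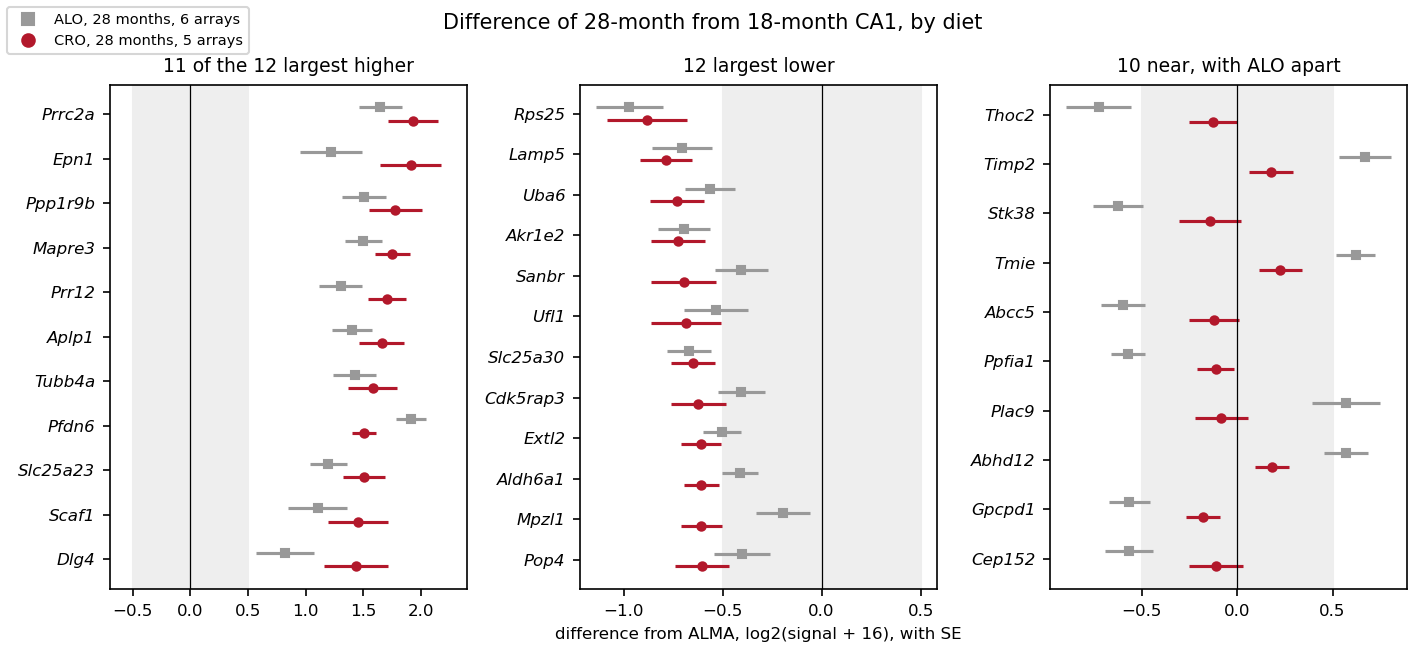
Difference from the ALMA mean in log2(signal + 16), with SE, for 11 of the 12 largest higher, the 12 largest lower and the 10 near genes whose ALO level stood apart. Circles are the restricted arrays (5) and squares the ALO arrays (6), and the grey band marks 0.5 on either side of 0. In the right panel the restricted values lie between -0.18 and 0.23.

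Of 24 postsynaptic density genes tested, 9 were higher and 0 lower, where 9.03% and 2.98% of all genes were. Another count, of near genes, was 9, against 66.3% of all genes, and the median difference was 0.24, against 0.01 over all genes. The same shares of all genes stand behind the counts of each list below. Shank3, a master scaffold of excitatory synapses, read 227, 269 and 262 on ALMA, 475, 481 and 443 on CRO_GP and 535 and 464 on CRO_PP, a difference of 0.88 ± 0.09 (limma adjusted p = 0.000737). Nrgn, the calmodulin-binding protein neurogranin, read 1268, 1196 and 1129, then 2078, 1818 and 1910.5 and 1848 and 1829.5, a difference of 0.66 ± 0.08 (limma adjusted p = 0.00166). Camk2g, a subunit of the calcium/calmodulin kinase II, differed by 0.88 ± 0.14 (limma adjusted p = 0.0048). Restricted and ALMA arrays did not overlap for any of the 3, nor for 14 of the 24 genes in all, against 25.7% of all genes. List genes were picked by small p on these arrays, so their separation, here and below, is no added support. The higher count was 6 without ALMA replicate 2 or without ALMA replicate 3, and 8 or 9 without any other single array. Without ALMA replicate 1, after quantile normalization and after median centring, 1 gene was lower. Ppp1r9b and Dlg4, described above, belong to this list.

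Among 23 genes of transmitter release, 6 were higher, 0 lower and 10 near, and the median difference was 0.02, or -0.04 after median centring. Rab3a, the vesicle GTPase, read 945, 911 and 813 on ALMA, 1841, 1686 and 1723 on CRO_GP and 1694 and 1886 on CRO_PP, a difference of 0.98 ± 0.09 (limma adjusted p = 0.000405). Syp, the vesicle protein synaptophysin, read 1119 to 1145 on ALMA and 1500.5 to 1858 on the restricted arrays, a difference of 0.53 ± 0.09 (limma adjusted p = 0.00532). Both levels stood above ALMA on all 5 restricted arrays. Groups did not overlap in 9 of the 23 genes, against 25.7% of all genes. Vamp2, the vesicle SNARE, and Syn1, which tethers vesicles, differed by 0.81 and 1.05. Their calls were lost without ALMA replicate 2 (limma adjusted p = 0.0521 and 0.0651) or ALMA replicate 3 (0.0516 and 0.0851), when 2 genes of the list were higher in each case.

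Of 10 AMPA and NMDA receptor genes, 2 were higher and 4 near. Cnih2, an auxiliary protein that slows AMPA receptor closing, read 629, 812 and 699.6 on ALMA, 1870.3, 1620.4 and 1379.8 on CRO_GP and 1783 and 1596 on CRO_PP, a difference of 1.19 ± 0.12 (limma adjusted p = 0.000611). Cacng2, or stargazin, which brings AMPA receptors to the synapse, differed by 0.95 ± 0.14 (limma adjusted p = 0.00263). Cacng3, a relative of stargazin, had 0.31 ± 0.18 (limma adjusted p = 0.271), with overlapping groups. Gria1 and Gria3, pore-forming subunits, were near, with differences of 0.03 and -0.03 and intervals of -0.33 to 0.38 and -0.22 to 0.17. Grin1, the obligatory NMDA receptor subunit, had 0.57 at a limma adjusted p of 0.0514.

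Grik5, a kainate receptor subunit, read 99.4, 105 and 101 on ALMA, 247, 272 and 267 on CRO_GP and 313 and 298 on CRO_PP, with ALO at 153 to 290.2 (median 204). The difference was 1.32 ± 0.09 (limma adjusted p = 0.000206), with a narrow spread in both groups. Grm2, a presynaptic metabotropic receptor, differed by 0.86 ± 0.17 (limma adjusted p = 0.0117). Of 10 kainate and metabotropic receptor genes, 2 were higher, 1 lower and 6 near, and the lowest difference was -0.73. Leaving out each array in turn gave 2 higher and 0 or 1 lower. No gene of the list of GABA receptors and gephyrin, their anchor, was called: 11 of 12 were near, among them Gabra4 (interval -0.21 to 0.21) and Gabra2 (-0.29 to 0.36), and 0 passed the test in limma, with 1 lower without ALMA replicate 1.

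Of 34 calcium signalling genes, 5 were higher, 0 lower and 21 near. Cacnb1 and Cacnb3, beta subunits of voltage-gated calcium channels, differed by 1.14 ± 0.13 and 1.29 ± 0.22 (limma adjusted p = 0.00095 and 0.00553). Cacna1h, a T-type channel, read 65.6, 73.5 and 76.1 on ALMA and 144 to 216 on the restricted arrays, a difference of 1.04 ± 0.13 (limma adjusted p = 0.00136). These 3 were called under every one of the 20 settings. Their groups did not overlap, as in 8 of the 34 genes of the list and 25.7% of all genes. The list held 3 higher genes without ALMA replicate 2 or ALMA replicate 3, and 3 lower genes without ALMA replicate 1. Where 9.03% of all genes were higher and 2.98% lower, 3 of 25 potassium channel genes were higher and 1 lower. They were Kcnj4, an inward rectifier (0.64), Kcnh2 (0.56) and Kcnd3, an A-type channel (0.50), and on the lower side Kcnc2, a fast delayed rectifier (-0.43). Without ALMA replicate 2, 1 was higher and 0 lower, and without ALMA replicate 3 neither direction had a call. The lower count was 0 without CRO_PP replicate 2.

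**Figure D3:**
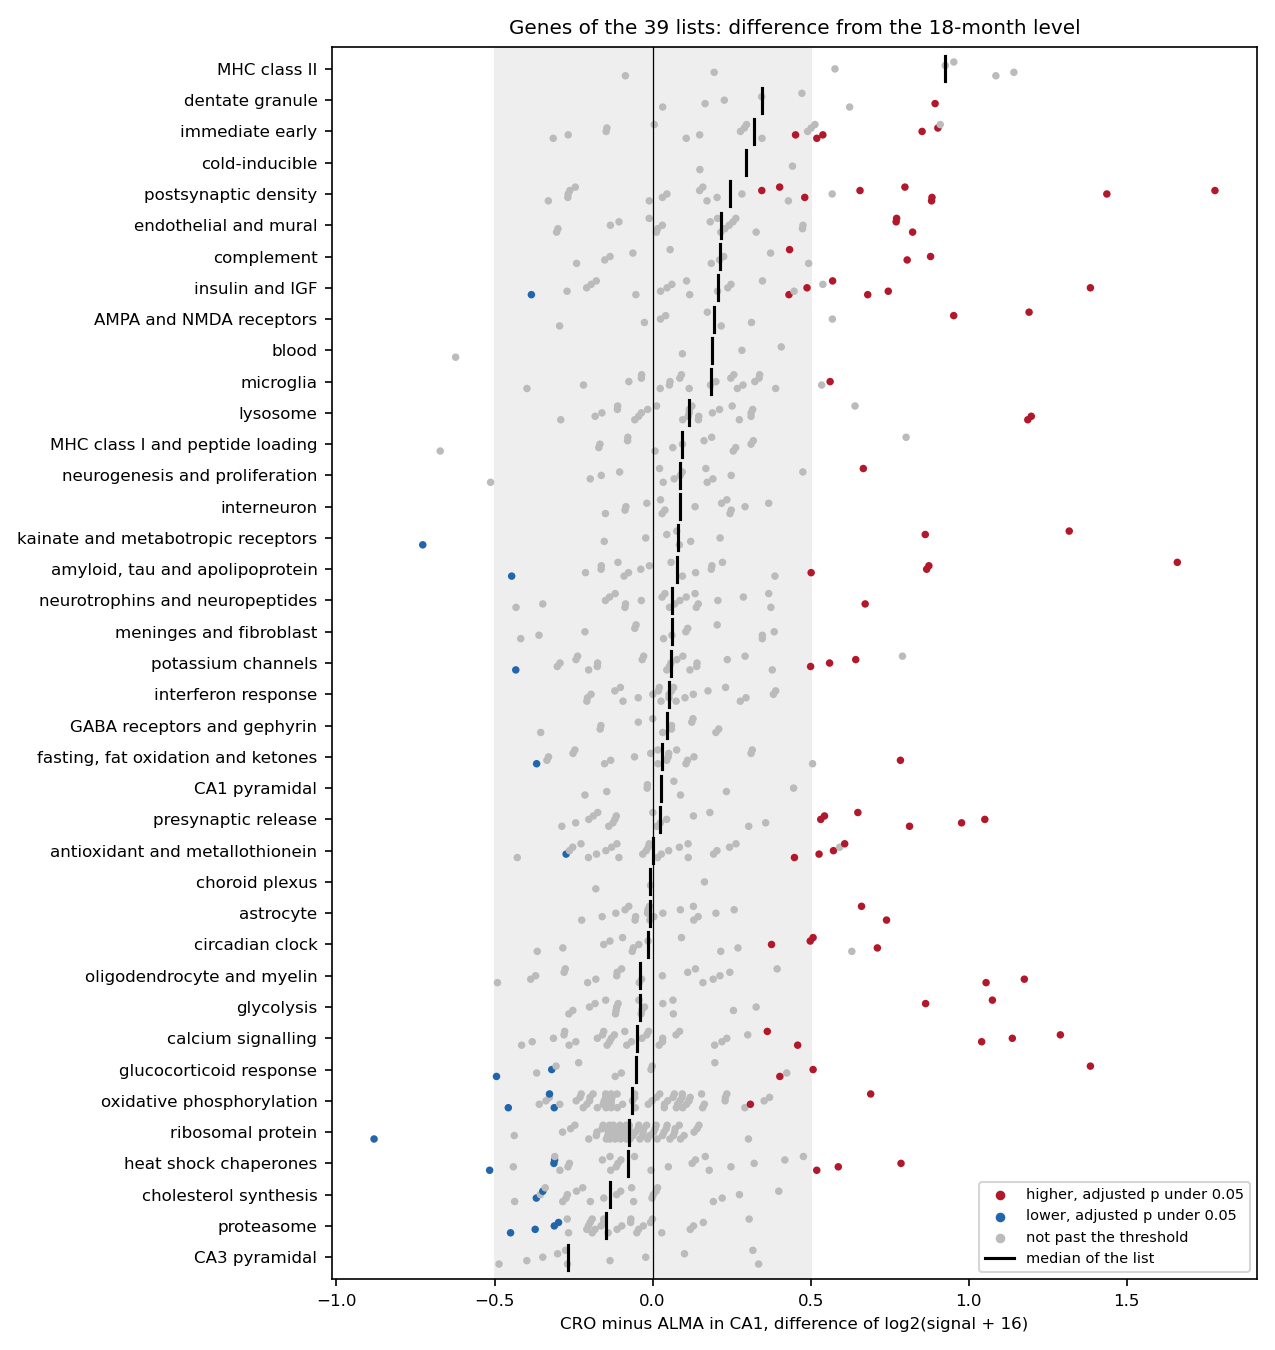
Difference of the restricted from the ALMA mean in log2(signal + 16) for every tested member of the 39 gene lists, ordered by the median of each list (black bars). Each point is a gene, red where called higher and blue where called lower, and the grey band marks 0.5 on either side of 0. The points of the ribosomal protein, oxidative phosphorylation and proteasome lists crowd the band, and 6 of the 7 MHC class II genes lie above 0 without a call.

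Most genes of protein and energy supply were near the 18-month level, as were 66.3% of all genes. Nearness needs a narrow interval as well as a small difference. Of 66 ribosomal protein genes, 63 were near, 0 higher and 1 lower, the latter being Rps25. Of 65 oxidative phosphorylation genes, 56 were near, 2 higher and 3 lower. Ndufa11, a complex I subunit, was the largest of the higher (0.69 ± 0.12, limma adjusted p = 0.00738). Uqcrc2, a core subunit of complex III, read 2248, 2200.2 and 2223 on ALMA, 1749, 1726 and 1805 on CRO_GP and 1396 and 1449.5 on CRO_PP, a difference of -0.46 ± 0.11 (limma adjusted p = 0.0233). Its call was lost without ALMA replicate 2 or 3 (0.0845 and 0.0866). The list's higher count was 1 without ALMA replicate 2, ALMA replicate 3, CRO_GP replicate 2 or CRO_PP replicate 2. Its lower count was 0 without ALMA replicate 2 and 1 without ALMA replicate 1, ALMA replicate 3, CRO_PP replicate 1 or CRO_PP replicate 2. With CRO_PP replicate 3 added, 39 of 66 ribosomal and 40 of 65 oxidative phosphorylation genes were near, against 4706 of all 9740 genes. In CRO_PP alone the counts were 57 and 44, against 4578 of 9736. Of 20 glycolysis genes, 17 were near and 2 higher. Hk1, the first enzyme of glucose use in brain, read 569.9, 616 and 510.2 on ALMA and 909 to 1277 on the restricted arrays, a difference of 0.86 ± 0.12 (limma adjusted p = 0.00218). Pfkl, a phosphofructokinase subunit, had 1.08 and missed the threshold without any one of the 3 ALMA arrays (limma adjusted p = 0.0508, 0.0508 and 0.056).

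The proteasome, which degrades ubiquitin-tagged proteins, had 4 of 30 genes lower, 0 higher and 25 near, and a median difference of -0.15. Psma2, a subunit of the core, read 569, 542 and 575 on ALMA, 429.5, 389 and 417 on CRO_GP and 402 and 399.8 on CRO_PP, a difference of -0.45 ± 0.08 (limma adjusted p = 0.00638). The others were Psmc6, an ATPase of the cap (-0.37), and Psma4 and Psma7 of the core (-0.31 and -0.30). Groups did not overlap for 13 of the 30 genes, these 4 among them, against 25.7% of all genes. Each of the 4 differences was under 0.5. The count of lower genes was 1 without ALMA replicate 2 or 3, and 2 without CRO_GP replicate 2, CRO_GP replicate 3, CRO_PP replicate 1 or CRO_PP replicate 2. After quantile normalization 1 was higher and 2 lower. Heat shock chaperones split, with 3 of 28 higher, 3 lower and 15 near. Hspa4 (0.59) and Hyou1 of the endoplasmic reticulum (0.79, present on 0 of the 3 ALMA arrays) were on the higher side and Pdia4, a disulfide isomerase (-0.52), on the lower. The lower count was 0 without ALMA replicate 2, CRO_GP replicate 2 or CRO_PP replicate 2, and 1 without ALMA replicate 1, ALMA replicate 3, CRO_GP replicate 1 or CRO_PP replicate 1. The higher count was 1 without ALMA replicate 2, and the lower count was 1 after quantile normalization.

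Of 24 cholesterol synthesis genes, 16 were near and 2 lower. Sqle, the squalene epoxidase, read 506, 609.5 and 570.5 on ALMA and 419.6 to 457 on the restricted arrays (-0.37 ± 0.09, limma adjusted p = 0.025), and Msmo1, a later enzyme, had -0.35 ± 0.09 (0.0338). No gene of the list was called without ALMA replicate 2, ALMA replicate 3 or CRO_GP replicate 2, and 1 was without CRO_GP replicate 1, CRO_GP replicate 3 or CRO_PP replicate 2. After median centring 6 were lower. CRO_PP alone had 2 genes of the list higher and 0 lower, with a median of -0.09. Genes of fasting, fat oxidation and ketones showed 1 of 22 higher, 1 lower and 13 near. Pdk2, a kinase that inhibits pyruvate dehydrogenase, read 298, 297 and 310.2 on ALMA, 489.7, 512 and 441 on CRO_GP and 618 and 618 on CRO_PP. Its difference was 0.78 ± 0.12 (limma adjusted p = 0.00347). ALO minus ALMA was 0.75 for the same gene. Hadhb, of mitochondrial fatty acid oxidation, had -0.37, with limma adjusted p-values of 0.0846 without ALMA replicate 2 and 0.0551 without ALMA replicate 3.

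Of the immune lists, complement and microglia held calls against the 18-month level, 4 in all. The 7 MHC class II genes tested, which present antigens and mark activated microglia, had a median difference of 0.93, yet 0 passed the limma test and 1 was near. RT1-Bb, a class II beta chain, read 60.8, 27.4 and 21.8 on ALMA, 79.9, 73.9 and 54.0 on CRO_GP, 111 and 201 on CRO_PP and 108 to 611 (median 219.6) on ALO. Its difference was 1.14 ± 0.34 (limma adjusted p = 0.056), with an interval of 0.40 to 1.89, so it was neither far nor near. ALMA replicate 1 and the lowest restricted array overlapped for RT1-Bb, and the other ALMA arrays stood beneath all restricted arrays. Cd74, the class II chaperone, read 380.4, 167 and 134 on ALMA, 280.4 to 918 on the restricted arrays and 574 to 2218 (median 1021) on ALO (1.09 ± 0.37, limma adjusted p = 0.0876). Without ALMA replicate 1, 4 of the 7 genes were called higher, and without CRO_GP replicate 3, 1 was. The list's median of CRO minus ALO was -1.13, and that of ALO minus ALMA was 2.18.

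Of 13 complement genes, 3 were higher, 0 lower and 5 near. C1qb, a chain of the starter C1q, read 104, 112 and 95.6 on ALMA, 153, 129 and 147 on CRO_GP, 145 and 155 on CRO_PP and 133 to 797 (median 211) on ALO, a difference of 0.43 ± 0.09 from ALMA (limma adjusted p = 0.0148). C1qa, another chain, differed by 0.81 ± 0.17 (0.0164), and Serping1, the C1 inhibitor, by 0.88 ± 0.21 (0.0245). No complement gene was called without ALMA replicate 3, 1 was without ALMA replicate 2, and 2 were without CRO_GP replicate 2 or CRO_PP replicate 1. Where 66.3% of all genes were near and 9.03% higher, 9 of 23 microglial markers were near and 1 was called higher. That was Tyrobp, a signalling adaptor (0.56 ± 0.16, limma adjusted p = 0.0483), and the call held under 5 of 20 settings. It was lost without ALMA replicate 2 or 3 (0.182 and 0.193), CRO_GP replicate 1 or 2 (0.07 and 0.0868) and CRO_PP replicate 1 or 2 (0.0889 and 0.0905). Trem2, a microglial receptor, read 35.5 to 46.4 on ALMA, 50.1 to 63.8 on the restricted arrays and 68.9 to 101 (median 74.2) on ALO, with a limma adjusted p of 0.0524 against ALMA. Of 24 interferon response genes, 16 were near and 0 called, and of 15 genes of MHC class I and peptide loading 9 were near and 0 called. Without ALMA replicate 1, each of these lists had 1 gene higher, and MHC class I also had 1 without CRO_GP replicate 3 or CRO_PP replicate 2.

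In bulk tissue, fewer cells of a type and less RNA per cell cannot be told apart, so the marker lists are given with their sums. The summed signal of 25 microglial markers was 5330.2 to 6452 on ALMA, 4783 to 6215 on CRO_GP, 6917 to 7438 on CRO_PP and 6152 to 10567 on ALO. The CRO_PP sums lay above every ALMA and CRO_GP sum. CRO_GP alone had 0 microglial genes higher and 1 lower, and CRO_PP alone 3 higher. Of the markers, 21 of the 25 were present on all 8 arrays, with Itgam and Csf2rb on none. The 22 astrocyte markers summed to 38886 to 42107 on ALMA and 35546 to 43035 on the restricted arrays. Of all genes, 66.3% were near and 9.03% higher. The intermediate filament gene Gfap was near (-0.03 to 0.43), as were 17 of 21 astrocyte genes, and 2 were higher, Sox9 (0.66) and Atp1b2 (0.74). Without ALMA replicate 2 neither was called (limma adjusted p = 0.0521 and 0.0883), and without ALMA replicate 3 Atp1b2 was not (0.079).

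Among 22 oligodendrocyte and myelin genes, 2 were higher, 0 lower and 5 near, where 9.03%, 2.98% and 66.3% of all genes were. The median was -0.04. Sox10, the lineage factor, differed by 1.18 ± 0.28 and Mag, a myelin adhesion protein, by 1.05 ± 0.28 (limma adjusted p = 0.0258 and 0.0382). Neither was called without ALMA replicate 2 (0.099 and 0.158) or ALMA replicate 3 (0.116 and 0.157), and Mag not without CRO_GP replicate 1 or 2 (0.0644 and 0.0605) or CRO_PP replicate 1 or 2 (0.0726 and 0.0717). Their sum ran from 19137 to 27853 on ALMA and from 18814 to 23405 on the restricted arrays. Of 21 endothelial and mural genes, 3 were higher and 8 near. Vwf, the endothelial clotting factor, read 259, 210.0 and 188 on ALMA and 352 to 418 on the restricted arrays, a difference of 0.77 ± 0.11 (limma adjusted p = 0.00241). Tagln of smooth muscle (0.82) and Eng of endothelium (0.77, present on 0 of the 3 ALMA arrays) lost their calls without ALMA replicate 2 (0.102 and 0.109) or 3 (0.0791 and 0.105). Without CRO_GP replicate 3, 5 genes of the list were higher. The sum of the list was 3798 to 4642 on ALMA and 4112 to 4974 on the restricted arrays.

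CA1 was cut by hand next to CA3 and the dentate gyrus, so markers of these regions were read too. None of 8 CA1, 11 CA3 or 14 interneuron markers was called, and 6, 3 and 10 of them were near. Without ALMA replicate 1, 1 CA3 marker was called higher and 2 lower, and without CRO_GP replicate 3, 1 CA1 marker was higher. CA3 markers had a median of -0.27, with 2 called lower after median centring, and sums of 5902 to 8027 on ALMA and 5468 to 6016 on the restricted arrays. Dentate granule markers had positive differences in all 7 members tested and a median of 0.35. Their sum was 1918 to 2504 on ALMA and 2645 to 3199.6 on the restricted arrays, with no overlap, and 3 of the 13 markers, Tdo2, Pdzd2 and Maml2, were present on no array. Pitpnm2, a lipid transfer protein of that list, read 251, 270.4 and 239 on ALMA and 402 to 584 on the restricted arrays (0.89 ± 0.11, limma adjusted p = 0.00162), and was its only call. Calb1, another of the list, read 1073 to 1347 on these CA1 arrays, a large part of the sum. Its median was higher in CA1 (1205) than in the dentate gyrus (984). Of 13 dentate markers, 9 had their highest median in the dentate gyrus, as 12 of 15 CA3 markers had in CA3. In each list, 1 marker read higher there on every array than in the other 2 regions. The part of dentate tissue in the results was not tested. Choroid plexus markers (3 tested), meningeal markers (13) and blood markers (4) had 0 calls. Leaving out ALMA replicate 1 or CRO_GP replicate 2 gave 1 meningeal call, and leaving out CRO_GP replicate 3 or CRO_PP replicate 2 gave 1 lower blood marker.

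Among 23 genes of insulin and growth factor signalling, 6 were higher, 1 lower and 9 near, with a median of 0.21. Ddit4, a stress-induced inhibitor of the growth kinase mTORC1, read 189, 136 and 156 on ALMA, 599, 547 and 326 on CRO_GP and 349 and 445 on CRO_PP, a difference of 1.39 ± 0.19 (limma adjusted p = 0.00241). ALO read 415 to 583 (median 471). Igf1r, the receptor of insulin-like growth factor 1, read 78.6, 90.5 and 71.8, then 120.3, 128 and 131 and 172 and 142, a difference of 0.68 ± 0.12 (limma adjusted p = 0.00628). For Igf1r the ALO arrays lay between, at 93.3 to 115 (median 106), with CRO minus ALO at 0.34 (limma adjusted p = 0.0424). Akt2 and Akt1, kinases beneath these receptors, differed by 0.57 and 0.43, and the call of Akt1 was lost without ALMA replicate 2 or 3 (0.06 and 0.0614). The list held 3 higher genes without ALMA replicate 2 and 4 without ALMA replicate 3. There was 1 lower gene without ALMA replicate 3 or CRO_GP replicate 3, and 0 without any other single array.

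Clock genes, whose products drive daily rhythms of transcription, had 4 of 17 members higher, 0 lower and 8 near. Dbp, a clock output factor, read 289.6, 227 and 268 on ALMA, 422, 425 and 407 on CRO_GP and 488 and 444 on CRO_PP, a difference of 0.71 ± 0.10 (limma adjusted p = 0.00243). Nr1d1, the repressor REV-ERB alpha, read 95.1, 81.5 and 98.5, then 119.6, 137 and 129 and 140.3 and 155, a difference of 0.50 ± 0.10 (limma adjusted p = 0.0127). Tef, a relative of Dbp, had 0.38 ± 0.11 (0.0484) and Per1, a period repressor, 0.51 ± 0.14 (0.0451). Per1 was called present on 0 of the 3 ALMA and 3 of the 5 restricted arrays. The groups did not overlap for these 4 of the 17 genes, against 25.7% of all genes. Their standing differed: Dbp was called under each of 20 settings, Nr1d1 under 19, Per1 under 8 and Tef under 3. Without ALMA replicate 2, 1 gene of the list was called, and without ALMA replicate 3, CRO_PP replicate 1 or CRO_PP replicate 2 it was 2, as it was after quantile normalization or median centring. The sources used here do not give the hour of death.

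The promoters of 3 of these genes are shown because CLOCK and BMAL1 bind the E-box CACGTG. They are RefSeq sequences of build GRCr8, from 250 bases before to 50 after the start on the gene's strand, with the E-box in capitals. CACGTG reads alike on both strands and was counted on 1. It stood in 2148 of 33469 rat promoters of that length (6.42%), and in 4 of the 19 promoters of clock genes. By gene, it stood in a promoter of 4 of the 17 clock genes that had one in the table. Those were Tef, Nr1d1, Bhlhe40 and Bhlhe41.
Tef, chr7:115206577-115206876, plus strand: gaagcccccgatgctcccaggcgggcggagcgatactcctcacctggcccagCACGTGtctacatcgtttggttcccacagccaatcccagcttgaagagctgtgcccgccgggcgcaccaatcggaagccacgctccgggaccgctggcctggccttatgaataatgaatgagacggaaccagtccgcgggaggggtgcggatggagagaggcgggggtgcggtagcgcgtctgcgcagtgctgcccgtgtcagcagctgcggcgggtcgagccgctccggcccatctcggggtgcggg
Nr1d1, chr10:84229405-84229704, minus strand: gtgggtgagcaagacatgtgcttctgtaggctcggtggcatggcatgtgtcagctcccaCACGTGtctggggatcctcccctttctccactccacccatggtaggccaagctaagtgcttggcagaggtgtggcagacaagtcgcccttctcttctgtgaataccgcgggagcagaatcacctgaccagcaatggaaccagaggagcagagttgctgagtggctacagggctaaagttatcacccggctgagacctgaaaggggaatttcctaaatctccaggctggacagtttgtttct
Dbp, chr1:105312006-105312305, plus strand: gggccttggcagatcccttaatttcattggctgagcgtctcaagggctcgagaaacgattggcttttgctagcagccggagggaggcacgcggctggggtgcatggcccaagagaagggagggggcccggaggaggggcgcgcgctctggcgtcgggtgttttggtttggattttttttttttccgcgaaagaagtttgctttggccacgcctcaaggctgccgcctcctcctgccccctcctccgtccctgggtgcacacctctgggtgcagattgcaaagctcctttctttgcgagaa
The match began 198 bases before the start in Tef and 191 in Nr1d1, whose other listed start has none in its window. The windows of Dbp and Per1 hold none of these letters, which says nothing of sites elsewhere.

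Immediate early genes, which neurons switch on within minutes of activity, had 5 of 20 members higher, 0 lower and 2 near, with a median of 0.32. Nr4a1, an orphan nuclear receptor, read 151, 119.7 and 148 on ALMA, 320.0, 254 and 198 on CRO_GP and 249.6 and 317 on CRO_PP, a difference of 0.85 ± 0.15 (limma adjusted p = 0.00697). Fosl2 (0.52), Junb (0.45) and Nr4a2 (0.54) were the others named by the rule, Fosl2 being present on 0 of the 3 ALMA and 2 of the 5 restricted arrays. The list had 1 call without ALMA replicate 2 or 3. There were 2 without CRO_GP replicate 2, 3 without CRO_GP replicate 1 or CRO_PP replicate 2, and 4 without CRO_PP replicate 1, and quantile normalization left 2. Glucocorticoid response genes had 3 of 14 higher and 2 lower. The 2 counts were 1 and 0 without ALMA replicate 3, 2 and 0 without ALMA replicate 2, and the lower count was 1 without CRO_GP replicate 2, CRO_PP replicate 1 or CRO_PP replicate 2. Hsd11b1, which regenerates active corticosteroid, read 1019.5, 1076 and 995 on ALMA, 784 to 854 on the restricted arrays and 924 to 1109 (median 1012) on ALO, a difference of -0.32 ± 0.08 from ALMA (limma adjusted p = 0.0289). Klf9, a direct target of the receptor, was near (-0.18 to 0.18). Hsd11b1 lost its call without ALMA replicate 2 or 3 (0.129 and 0.0828), CRO_GP replicate 2 (0.0544) or CRO_PP replicate 1 or 2 (0.0538 and 0.0602).

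Rbm3, a cold-shock RNA-binding protein, was near the 18-month level. It read 1456, 1489 and 1582 on ALMA, 1663, 1731 and 1776 on CRO_GP, 1518 and 1698 on CRO_PP and 896 to 1338 (median 1057) on ALO. Every ALO array stood below every ALMA and every restricted array. The interval of the restricted minus ALMA difference was -0.04 to 0.34, while ALO minus ALMA was -0.50 (limma adjusted p = 0.00506) and CRO minus ALO 0.65 (0.00732). Cirbp, its cold-inducible relative, had 0.44 ± 0.14 against ALMA (limma adjusted p = 0.0696) and 0.46 against ALO (0.0303). It was called against ALMA without ALMA replicate 1 or CRO_GP replicate 2, and with the 6 ALO arrays in the fit. Ntrk3, the receptor of neurotrophin-3, was higher in restricted rats than in ad libitum rats of 18 or 28 months. It read 116, 114 and 119.8 on ALMA, 187, 187 and 213 on CRO_GP, 198 and 192 on CRO_PP and 98.2 to 152 (median 123) on ALO, so the restricted arrays lay above all others. Restricted minus ALMA was 0.67 ± 0.08 (limma adjusted p = 0.00121), CRO minus ALO 0.59 (0.00732) and ALO minus ALMA 0.09 (0.594). It was 1 call among 22 neurotrophin and neuropeptide genes, 13 of which were near.

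The list of amyloid, tau and apolipoprotein genes had 4 of 20 members higher, 1 lower and 13 near. Besides Aplp1, they were Aph1a of the gamma-secretase (0.87 ± 0.11, limma adjusted p = 0.00139), Aplp2, an amyloid precursor relative (0.87 ± 0.12, 0.00248), and Lrp1, a lipoprotein receptor (0.50 ± 0.09, 0.00854). Aph1a read 152, 148 and 152 on ALMA and 239 to 332 on the restricted arrays. The list held 4 higher genes whichever single array was left out, with 0 lower without ALMA replicate 3 and 2 lower without ALMA replicate 1. Of 27 lysosomal genes, 2 were higher and 19 near, where 9.03% and 66.3% of all genes were. Psap, the precursor of the saposins that help degrade sphingolipids, read 646, 644 and 648 on ALMA, 1487, 1322 and 1415 on CRO_GP and 1793 and 1531 on CRO_PP, a difference of 1.20 ± 0.10 (limma adjusted p = 0.000401). Cln3, a lysosomal membrane protein, had 1.19 ± 0.20 (0.00527) at ALMA signals of 14.8, 14.3 and 15.5, and its sum of differences from dChip, the authors' second kind of signal, was -0.13. The lysosomal list had 4 genes higher without CRO_GP replicate 3. Of 30 antioxidant genes, 23 were near, 4 higher and 1 lower. Those higher were Prdx6 (0.53), Gstm1 (0.45), the metal-binding Mt1 (0.57) and extracellular superoxide dismutase Sod3 (0.61). No antioxidant gene was called higher without ALMA replicate 2 or without ALMA replicate 3, and the lower call was lost without any one of the 8 arrays. Among 15 neurogenesis and proliferation genes, Dpysl5, of growing neurites, was the 1 call (0.67 ± 0.13, limma adjusted p = 0.0134), lost without ALMA replicate 2 (0.0709), and 9 were near. Without ALMA replicate 1 there were 2.

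Restricted good and poor performers were not at the same distance from the 18-month level for every gene. In the same 8 arrays, limma called 328 genes between CRO_PP and CRO_GP (3.35%), with 2 against 3 arrays that also differ in their control transcripts. Ppp1r9b lay 1.46 above ALMA in CRO_GP and 2.26 in CRO_PP, a difference of 0.80 ± 0.14 (limma adjusted p = 0.0347). Epn1 had 1.56 and 2.44, and Scaf1 1.08 and 2.02. Pfdn6, at 1.60 and 1.38, was the 1 gene of the 11 with the larger value in CRO_GP (limma adjusted p = 0.253). Erap1, which trims peptides for MHC class I, read 409, 401 and 389.7 on ALMA, 355, 299 and 297 on CRO_GP and 151 and 183 on CRO_PP. It was -0.87 ± 0.11 in CRO_PP against CRO_GP (limma adjusted p = 0.0243). Ntrk3, Rab3a and Aldh6a1 had nearly the same distance in both: 0.67 and 0.67, 0.96 and 1.00, and -0.61 and -0.61. Taken alone against the same ALMA arrays, CRO_GP and CRO_PP had 1 and 8 endothelial and mural genes higher, 2 and 6 complement genes, 2 and 7 lysosomal genes, and 3 and 7 immediate early genes. The proteasome list had 1 and 6 lower. Over all genes, CRO_GP alone had 594 of 9720 higher and 136 lower, and CRO_PP alone had 1227 of 9736 higher and 514 lower. So CRO_PP had more calls in general, not only in these lists. Transmitter release genes had 6 and 6 higher, and astrocyte genes 2 and 2. CRO_PP alone also had 2 immediate early genes lower. These differences in count were not tested.

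**Figure D4:**
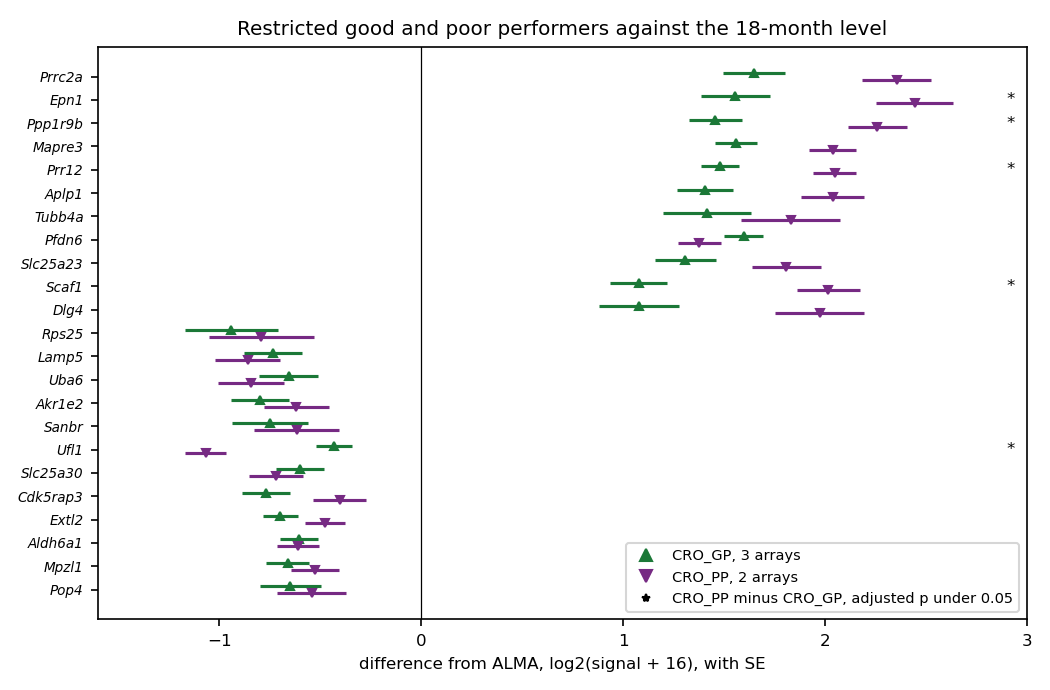
Difference from the ALMA mean in log2(signal + 16), with SE, for 11 of the 12 largest higher and the 12 largest lower genes, drawn apart for CRO_GP (3 arrays) and CRO_PP (2 arrays). Asterisks mark an adjusted p under 0.05 for CRO_PP minus CRO_GP. Of the 11 higher genes, 10 lie further from ALMA in CRO_PP.

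By the animal numbers in the sample descriptions, the rats above also gave the CA3 and dentate arrays, except that 2 ALMA CA3 arrays carry the same number. Also, 1 dentate array titled as a good performer is described as a poor one. With animal R12, the source of the degraded CA1 sample, left out there too, limma called 2429 genes in CA3 (25.1%) and 3064 in the dentate gyrus (31.7%) between restricted and ALMA rats. Ppp1r9b differed by 2.02 and 1.92, Grik5 by 1.48 and 1.35, and Psap by 1.19 and 1.09. Of the lower genes, Aldh6a1 had -0.65 and -0.66, with limma adjusted p-values of 0.00086 and 0.000348. Lamp5 had -0.36 (0.227) and 0.18 (0.193), and Vwf 0.33 (0.351) and -0.22 (0.745), so neither passed outside CA1. Rbm3 had 0.03 and -0.10. Differences between regions were not tested.

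The authors' second kind of signal, from dChip, holds no table with both classes, so its values were chained over the 6 ALO arrays as ALO minus ALMA in 1 table plus CRO minus ALO in another, with no test. The sum was above 0 for 859 of the 883 genes called higher (97.3%) and for 12 of the 291 called lower (4.12%), against 61.9% of all genes. Its median was 0.52 where the value table gave 0.57, and -0.19 where it gave -0.38. The size of single genes varied. Of the 140 genes examined, the sum differed from the value-table difference by more than the replicate spread in 67 and did not in 71. In the other 2, both past the threshold, it turned sign. A turned sign was counted only for genes past the threshold. Grik5 had 1.30 by dChip, Prr12 1.92, Mapre3 1.92 and Ntrk3 0.58, close to or above their value-table differences. Ppp1r9b had 0.23, Syn1 0.23, Psap 0.38 and Shank3 0.35, far below theirs, and Ddit4 had 0.55 and Hk1 0.30. Of the 83 far genes on the higher side, 17 had a dChip sum within 0.5 of 0. Cln3 (-0.13) and Cdk5rap3 (0.23) changed sign.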

How the data were processed

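CA1, CA3 and the dentate gyrus were cut by hand from each hippocampus, and the RNA of each region of each animal was hybridized to 1 RAE 230 2.0 oligonucleotide array, per the labels' protocols. The intensity values are those the authors deposited, linear probe set signals of a value table whose software the sources used here do not state. Their trimmed mean is 150 on every array. The dChip intensities and the detection calls (present, marginal or absent) come from other tables the authors deposited, none of which holds both classes.

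Signals were taken as log2(signal + 16), and probe sets with a mean above quantile 0.4 were kept (18625). Groups were compared with limma 3.58.1 in R 4.3.3, checked on simulated data, with Benjamini-Hochberg adjustment over all kept probe sets. The ALO contrasts came from a fit of 14 arrays, and the CA3 and dentate contrasts from fits of their own. Genes were named as the 12 largest called increases and decreases with groups apart and present calls on the brighter side, and the 10 near genes with the largest ALO difference. For each of 39 gene lists, the 4 members of smallest p and the 2 nearest to 0 were added, and the text gives a part of these. Some genes of these sets are not reported here. The members and lists were chosen with earlier results of these data known. CRO_PP replicate 3, marked as an outlier in the authors' array sheet, was left out. Alternatives changed the added constant, the filter, the scaling, the arrays used and the replicate block.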

Additional observations from a re-analysis of the deposited data

Results flagged for a closer look

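In 13 of the 140 genes examined, restricted poor performers differed from restricted good performers in limma over the same 8 arrays, 2 against 3. Over all genes 3.35% did, and the 140 were chosen in part for large differences on these arrays. The CRO_PP minus CRO_GP differences on the higher side were 0.939 for Scaf1, 0.888 for Epn1, 0.821 for Pfkl, 0.802 for Ppp1r9b, 0.764 for Syn1, 0.717 for Cln3 and 0.714 for Cacnb3. Those of Prr12, Hyou1 and Grin1 were 0.568, 0.565 and 0.548. CRO_PP was lower for Erap1 (-0.867), Tap2, a peptide transporter of MHC class I loading (-0.828), and Ufl1 (-0.635). Every CRO_PP array lay above every CRO_GP array for the first 10 and below for the other 3. The 13 genes were picked by this same comparison, so that separation is no added support. The DapX 3' control read 3.87 to 4.20 on CRO_PP and 186 to 266 on CRO_GP, so performance and control level cannot be told apart.

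In 4 of the 140 genes, 1 restricted array stood apart from the other 4, with a gap that took up most of the range of the 5. Chance alone sets apart about 1 array in 20 such groups. Sanbr read 15.6 on CRO_GP replicate 1, against 24.8 to 27.1 on the others (gap over range 0.823). Gabra2 read 206 on CRO_GP replicate 3, against 128 to 138 (0.843). Akt2 read 157 on CRO_PP replicate 1, against 130.0 to 138 (0.71), and Sqle 457 on CRO_PP replicate 2, against 419.6 to 429 (0.732).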

How the results depend on the processing

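Of 99 genes in the text past the threshold, 39 stayed past it in all 20 refits, 36 missed it in 1 to 4 and 24 in 5 or more. None of the 99 changed direction in a refit. With dChip signals, where the 2 steps were summed without a test, Cdk5rap3 (0.23) and Cln3 (-0.13) changed sign. The dChip sums and the counts of each gene list under the alternatives were chosen after seeing the data. Over probe sets, with 1897 calls, 1410 higher, 487 lower and 12089 near, leaving out each array in turn gave 692 to 1952 calls, 616 to 1477 higher and 58 to 498 lower. Adding CRO_PP replicate 3 gave 719 calls, 645 higher and 74 lower. CRO_GP alone gave 1253 calls with 277 lower, and CRO_PP alone 2884 with 870 lower. The lower calls numbered 827 with 64 added to the signals, 300 without the filter, 1096 after median centring, 736 with a variance trend and 932 with the 6 ALO arrays in the fit. Without the filter 21662 probe sets were near. The share of higher calls, 74.3%, was 63.9% with 64 added, 89.7% with CRO_PP replicate 3, 91.7% without ALMA replicate 2 and 89.0% without ALMA replicate 3. With the replicate block, limma gave 1125 calls, 157 of them lower, and 86.0% higher. Residuals of same-numbered arrays correlated at -0.05 on average (7 pairs, from -0.22 to 0.14), against 0.02 for the other 14 pairs. These residuals were taken about group means of 2 or 3 arrays, so the 2 CRO_PP arrays mirror each other and the pairs are not independent. The check therefore cannot settle whether the replicate numbers pair the arrays. The cause of these shifts was not tested.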
